A study of Caenorhabditis elegans with 2 samples.

Results

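ZTF-4 occupied 359 sites on the X chromosome of L1 larvae of the nematode Caenorhabditis elegans, among 1898 sites in all. These X peaks are all regions on X in the authors' list of pooled regions kept by the irreproducible discovery rate (IDR) procedure, in assembly ce11. A place in that list does not mean that a peak was matched in both replicates. They are 18.9% of the peaks (exact Clopper-Pearson 95% interval 17.2 to 20.8), and the other 1539 peaks, on the 5 autosomes, served as the background. The material came from strain OP322, genotype unc-119(ed3) III; wgIs322, whose insertion encodes ZTF-4 fused to the fluorescent protein eGFP. It was taken as whole animals at the L1 stage, with the sex recorded as pooled male and female. There was 1 group of 2 biological replicates, each listed with a biosample of its own, and no untagged or input sample was analysed here. The labels do not say how the insertion's level compares with that of the gene itself, and whole larvae mix all tissues.

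ZTF-4 is named as a zinc finger transcription factor. In this species hermaphrodites carry a pair of X chromosomes and males a single one. A dosage compensation complex, related to condensin, lowers X transcription in hermaphrodites by loading at recruitment elements on X that share a short sequence motif and spreading from there. The X also differs from the autosomes in its gene content, with few genes active in the germline and many tRNA genes.

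The sequences under the 10 strongest X peaks, in order of signal, are shown because a shared word recurs in most of them. Each is the forward strand of X in ce11 (WBcel235, read from the RefSeq genome), 5′ to 3′, with the summit as the central base and 50 bases to each side, and is named by its nearest protein-coding gene. Capitals mark GCGCAGGG, the core of the recruitment motif, or the wider word GCGNAGGG, on either strand (CCCTGCGC and CCCTNCGC read backwards). The puf-9 and F55G7.5 sequences hold neither within these 50 bases, and have 1 copy of the wider word each within 150 bp.
W02H3.3 peak, X:11094175-11094275: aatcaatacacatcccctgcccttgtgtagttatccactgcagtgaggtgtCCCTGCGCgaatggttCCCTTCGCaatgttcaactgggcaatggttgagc
nspc-17 peak, X:14525844-14525944: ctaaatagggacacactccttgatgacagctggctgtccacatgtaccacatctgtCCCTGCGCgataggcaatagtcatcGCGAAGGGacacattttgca
xol-1 peak, X:8036341-8036441: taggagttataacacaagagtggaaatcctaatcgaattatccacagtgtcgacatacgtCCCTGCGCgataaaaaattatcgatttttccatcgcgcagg
K02D3.1 peak, X:13700820-13700920: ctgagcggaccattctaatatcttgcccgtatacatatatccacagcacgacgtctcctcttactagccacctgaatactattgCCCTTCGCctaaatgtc
F20B6.9 peak, X:4209233-4209333: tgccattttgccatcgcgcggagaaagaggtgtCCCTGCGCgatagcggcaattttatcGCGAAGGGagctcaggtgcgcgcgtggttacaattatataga
cest-16 peak, X:6296499-6296599: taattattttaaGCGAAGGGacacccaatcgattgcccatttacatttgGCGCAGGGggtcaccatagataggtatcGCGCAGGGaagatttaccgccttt
ZK899.6 peak, X:9465809-9465909: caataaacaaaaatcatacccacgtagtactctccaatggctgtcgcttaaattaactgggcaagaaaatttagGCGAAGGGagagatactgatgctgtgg
puf-9 peak, X:5841249-5841349: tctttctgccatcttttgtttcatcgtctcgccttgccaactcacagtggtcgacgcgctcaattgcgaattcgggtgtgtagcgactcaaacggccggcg
F55G7.5 peak, X:11937482-11937582: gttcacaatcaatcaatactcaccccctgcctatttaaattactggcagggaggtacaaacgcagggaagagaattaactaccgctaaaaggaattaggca
C41A3.2 peak, X:5429490-5429590: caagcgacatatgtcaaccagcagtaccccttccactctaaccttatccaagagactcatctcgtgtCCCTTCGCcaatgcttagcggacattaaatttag

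The tallest X peak, at X:11094030-11094343, had a pooled signal of 499, with 268 in replicate 1 and 229 in replicate 2. Signal is the authors' own height for a region, on a scale fixed within each list. This peak lay between W04G3.11 and W02H3.3, genes transcribed towards each other, beyond the 3′ end of W02H3.3 and 3961 bp from its 5′ end. The second, at X:14525720-14526065, reached 469 (241 in replicate 1 and 225 in replicate 2) and lay 713 bp upstream of nspc-17.

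The third, at X:8036294-8036540, reached 462, with 217 and 242 in the 2 replicates. It lay 4922 bp upstream of xol-1, the switch gene that directs male development, in a 9698 bp gap between genes. A weaker peak of 114 (50.5 and 61.0) stood 202 bp from it, on the xol-1 side. These were among the closest neighbours on X.

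The next in height were peaks of 454 near K02D3.1 (222 and 233) and 428 near F20B6.9 (rank 19 in replicate 1 and rank 9 in replicate 2, genome-wide). The latter lay in the gap shared with hpk-1, which encodes a homeodomain-interacting protein kinase. The sixth, of 402 (236 and 165), was inside intron 7 of mom-1, the Porcupine homologue that acts in Wnt secretion, with the cest-16 5′ end nearest. The seventh, of 400 (184 and 214), lay in the gap between ZK899.6 and gap-2, which encodes a Ras GTPase-activating protein. The eighth, of 395 (198 and 198), lay 293 bp upstream of puf-9, a Pumilio family gene, within the non-coding RNA genes W06B11.7 and W06B11.9.

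Ranks 9 to 14 on X ran from 370 down to 296. They lay near F55G7.5 (370), in a coding exon of the polyketide synthase gene pks-1 (366), near mdl-1 (354), near F22H10.2 (349), in intron 6 of Y41G9A.17 (318) and near gtr-1 (296). The mdl-1 gene encodes a Mad-like helix-loop-helix factor. Ranks 15 to 20 lay near serp-1.1 (279), T27A8.7 (264), zfp-3 (252), C30E1.4 (251), F19H6.5 (242) and ins-39 (227). All 20 ranked within the first 88 regions of replicate 1 and the first 98 of replicate 2, genome-wide.

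**Figure D1:**
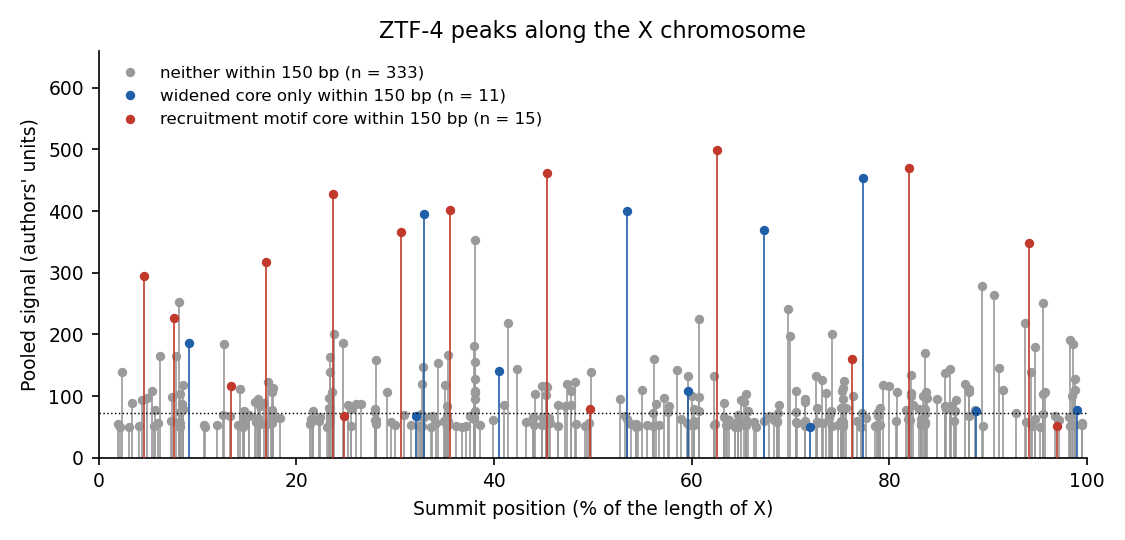
Pooled signal of each of the 359 X peaks (vertical axis, authors' units) against its summit position as a percent of the length of X (horizontal axis); colours mark peaks with the recruitment motif core within 150 bp of the summit, with only the widened core, or with neither, and the dotted line is the median of 73.5. The tallest peaks stand apart from each other along the whole chromosome, and most of those above 300 carry one of the marked words.

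The recruitment motif core GCGCAGGG was found, on either strand, within 150 bp of the summit of 15 of the 359 X peaks (4.18%, 2.36 to 6.80) and of 6 of the 1539 autosomal peaks (0.390%, 0.143 to 0.847). It is in 0.127% of all 301 bp windows that tile X and in 0.0809% of those that tile the autosomes. Within 50 bp the counts were 13 on X and 2 on the autosomes. Of the 20 strongest X peaks 10 had the core within 150 bp, against 0 of the 20 strongest autosomal peaks and 1 of the 50 strongest. Ranked by replicate 1 alone, 10 of the 20 strongest X regions had it, and by replicate 2 alone 9, with 0 of 20 on the autosomes in both.

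The 15 X peaks held 19 copies of the core, and the median distance from copy to summit was 24 bp. Peaks with the core had a median pooled signal of 318 (range 52.2 to 499), and the 344 X peaks without it had 71.9 (49.6 to 454). In replicate 1 the medians were 172 with the core and 37.4 without, and in replicate 2 they were 154 and 36.4. The ranges overlap widely: 4 of the 15 ranked below the 50 strongest X peaks, near T24D8.6 (117), R04E5.9 (79.1), dpy-23 (67.6) and B0302.2 (52.2). The files used here annotate no recruitment elements, so these peaks were not matched to any, and a copy of the core does not make a peak one. Only 3 of the 15 lay in promoter windows. A promoter window here is the stretch of 1000 bp before and 200 bp after the 5′ end of a protein-coding gene.

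Most copies of the core on X had no ZTF-4 peak. The word occurs 81 times on X, and 19 of these copies (23.5%, 14.8 to 34.2) lay within 150 bp of a peak summit. On the autosomes it occurs 233 times, and 7 copies (3.00%, 1.22 to 6.09) lay that near one. In the authors' longer, unthresholded pooled list the counts were 31 copies on X (38.3%, 27.7 to 49.7) and 19 on the autosomes (8.15%, 4.98 to 12.4). A longer list comes near more copies by position alone. The share of bases within 150 bp of a summit was not computed for either list, so these shares have no background beside them.

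Several strong X peaks without the core carried a copy that differs in the fourth base, and the wider word GCGNAGGG, which contains the core, was searched after these sequences had been seen. Its counts among the strongest peaks are therefore a description of the peaks it was drawn from. It was within 150 bp of 26 X peaks (7.24%, 4.79 to 10.4, with 0.639% of X windows) and of 22 autosomal peaks (1.43%, 0.898 to 2.16, with 0.533% of autosomal windows). Of the 20 strongest X peaks 14 had it, and of the 309 beyond the 50 strongest 9 had it (2.91%). Up to 3 copies stood in 1 peak, and 8 X peaks had at least 2. The peaks of ranks 11 and 15 to 19 on X, from mdl-1 to F19H6.5, had no copy.

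The sequence within 50 bp of each summit was searched for 4 other words on both strands, none of which contains another. The E-box CACGTG was within 50 bp of 33 X peaks (9.19%, 6.41 to 12.7) and 111 autosomal peaks (7.21%, 5.97 to 8.62), against 1.32% and 1.74% of 101 bp windows. The GA repeat GAGAGAGA was within 50 bp of 18 X peaks (5.01%, 3.00 to 7.81) and 144 autosomal peaks (9.36%, 7.95 to 10.9), against 0.553% and 0.688% of windows. The GATA word TGATAA was in 19 X peaks (5.29%, with 9.96% of windows) and 88 autosomal peaks (5.72%, with 9.22%). The E2F word GGCGGGAA was in 0 X peaks, which allows a share of up to 1.02% by the exact interval, and in 13 autosomal peaks (0.845%, 0.451 to 1.44), against 0.282% and 0.554% of windows.

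Among the 2080 possible words of 6 bases, each counted with its reverse complement, 637 were within 50 bp of the summit of at least 5% of X peaks. The largest excess over windows 300 bp to each side was that of CGAGGC, in 18 X peaks and on average 1 flanking window (ratio 18), with a ratio of 3.21 on the autosomes. It was followed by CGCACG (ratio 12.7 on X and 3.61 on the autosomes), CCTGCG (12 and 3.64), GAGGAC (11 and 1.56) and AGGGAG (10 and 1.89). The X ratios of these words rest on 1 to 4 flanking windows on each side. By share of peaks X and autosomes differed less. CGAGGC was in 5.01% of X and 3.96% of autosomal peaks, and CGCACG in 5.29% and 4.81%. CCTGCG was in 8.36% and 3.90%, GAGGAC in 6.13% and 3.64%, and AGGGAG in 11.1% and 5.46%. CCTGCG is part of the recruitment core read backwards. ACGCAG, named after its values were seen, was within 50 bp of 13.4% of X and 18.3% of autosomal peaks, with ratios of 8.73 and 9.21. Median GC content within 50 bp was 48.5% on X and 46.5% on the autosomes.

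The X made up a larger share of the very strongest sites than of all sites. It held 7 of the 20 strongest peaks (35.0%, 15.4 to 59.2), 15 of the 50 strongest, 23 of the 100 strongest and 188 of the 1000 strongest (18.8%, 16.4 to 21.4). Each replicate ranked alone gave 7 of 20 and 16 of 50, and the X held 25 of the 100 strongest in replicate 1 and 22 in replicate 2. The intervals at the top are wide and most include the share over all peaks. Chromosome III also had 8 of the 20 strongest peaks, and chromosome V had 0. With peaks holding the core left out, X had 5 of the 20 strongest remaining peaks and 8 of 50 (16.0%, 7.17 to 29.1). With peaks holding the wider word left out, which was drawn from these peaks, it had 1 of 20 and 5 of 50. Such falls were fixed in advance, since 10 of the 20 strongest X peaks and 0 of the 20 strongest autosomal peaks held the core.

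**Figure D2:**
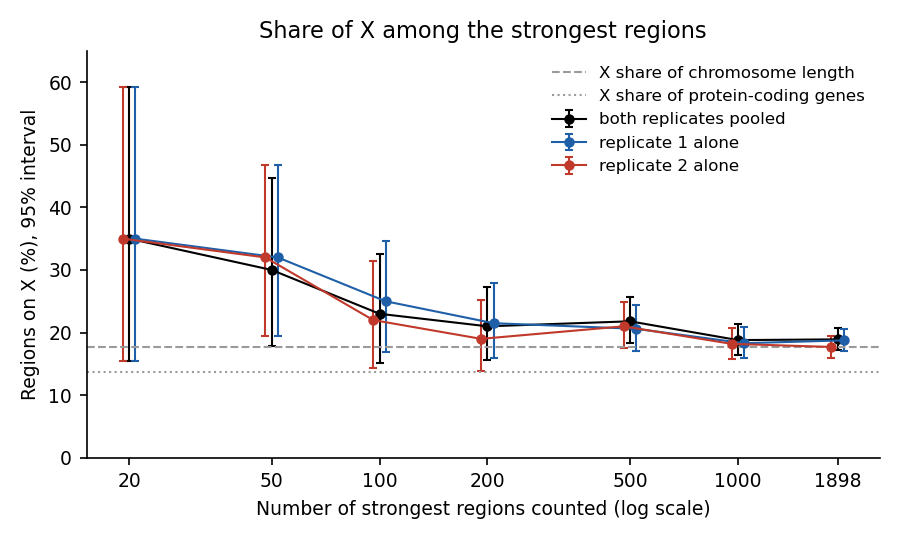
Percent of regions that lie on X (vertical axis, with exact 95% intervals) among the strongest 20 to 1898 regions (horizontal axis, log scale), for the pooled ranking and for each replicate alone; the dashed and dotted grey lines show the X share of chromosome length (17.7%) and of protein-coding genes (13.7%). All 3 rankings start at 35.0% for 20 regions and end between 17.7% and 18.9%.

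Counted by length, X had 20.3 peaks per Mb and the autosomes 18.6, from 13.4 on chromosome V to 24.7 on chromosome III. Counted by genes, X had 131 peaks per 1000 protein-coding genes and the autosomes 89.3, with chromosome III at 129. X is 17.7% of the chromosome length and has 13.7% of the protein-coding genes. Of the authors' 4658 pooled regions on X 359 passed the IDR threshold (7.71%, 6.96 to 8.51), and 8.24% of all 23044 pooled regions did. The 1898 peaks are the strongest 1898 of the pooled list. The 3 weakest X peaks had signals of 49.8 at C04A11.5, 49.7 at rsd-3 and 49.6 at R07E4.3, and the 3 strongest X regions outside had 49.5, 49.5 and 49.4.

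ZTF-4 peaks were spread along X with little difference between its left, middle and right, and on each autosome the middle held more than either end. Of the 359 X peaks 113 were in the left, 117 in the middle and 129 in the right of 3 equal lengths, so that the middle had 32.6% (27.8 to 37.7). On the autosomes the middle had from 43.0% (37.4 to 48.8) on chromosome IV to 51.9% (46.2 to 57.6) on chromosome I. In replicate 1 alone the X value was 34.8% and the autosomal values 43.6 to 55.0%. In replicate 2 alone they were 31.0% and 41.3 to 52.7%. Protein-coding genes were also spread more evenly on X, with 35.7% in the middle, but chromosomes II and V had 36.0% each. The interval of chromosome IV overlaps that of X in the IDR peaks and in each replicate alone, and those of the other autosomes do not.

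**Figure D3:**
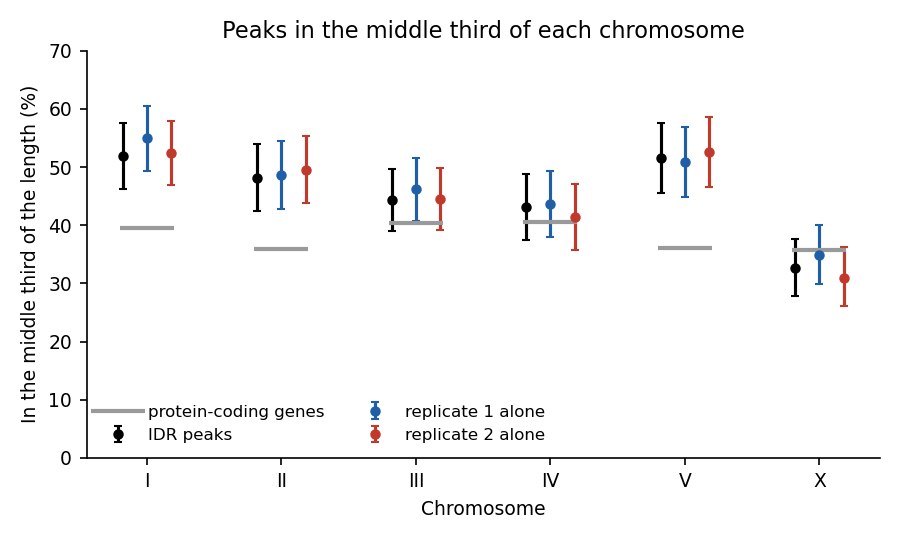
Percent of each chromosome's peaks in the middle of 3 equal lengths (vertical axis, with exact 95% intervals) for the IDR peaks and for the 1898 strongest regions of each replicate alone, by chromosome (horizontal axis); grey lines show the same for protein-coding genes. The X values lie between 31.0% and 34.8%, and the autosomal values between 41.3% and 55%.

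Along X the 17 full bins of 1 Mb held from 11 to 28 peaks. The emptiest was the leftmost, with 11 peaks among 130 genes. The densest were those from 6 to 7 Mb, with 28 peaks among 187 genes, and from 13 to 14 Mb, with 28 among 170. Bins with more genes had more peaks (Spearman rho 0.65 over the 17 bins, which share a chromosome and its gene density). The count per bin in the 2 replicates alone was alike, with a rho of 0.82. The 50 strongest X peaks were in 17 of the 18 bins, and the bin from 3 to 4 Mb had 0 of them.

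Neighbouring summits on X were a median of 25871.5 bp apart, against 21153 bp on the autosomes. Single autosomes ran from 16774 bp on chromosome III to 33928 bp on chromosome V, so the X value lies inside their range. The spread relative to the mean (coefficient of variation) was 1.34 on X, below each of the autosomes (1.41 to 1.81). Of the gaps on X 29 were under 1000 bp (8.10%), against 6.98% on the autosomes, where chromosome II had 10.3% and chromosome IV 8.31%. The closest pairs were 201 bp apart near bet-2, a bromodomain gene (signals 133 and 108), 202 bp apart near xol-1, and 205 bp apart near F09E10.1 (78.5 and 79.1). The widest gap was 542587 bp between F40F4.7 and pmpl-1, with 95 protein-coding genes inside it. The next were 511774 bp between C28G1.2 and oga-1, with 77 genes, and 261461 bp between fbxb-58 and B0294.3, with 43 genes.

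Joined at up to 5 kb, 149 X peaks (41.5%) lay in runs, of which 21 had 3 or more members. On single autosomes 40.9 to 49.0% of peaks lay in runs, 18 to 23 runs had 3 or more members, and the largest had 13, so the X values are near that background. The largest on X had 8 members each. One spanned 10196 bp at ZK470.4 and nck-1, which encodes an SH2 and SH3 adaptor, with signals from 57.8 to 163. The other spanned 8267 bp at R03E9.2 and mdl-1, with signals from 62.7 to 354. A run of 6 lay at gpcp-1 and the glyceraldehyde-3-phosphate dehydrogenase genes gpd-2 and gpd-3 (56.4 to 107), and 1 of 4 lay at lin-14 (49.9 to 69.2).

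X peaks lay farther from protein-coding 5′ ends than autosomal peaks did. X has 154 protein-coding genes per Mb and the autosomes 209, and the distance that these densities alone would give was not computed. The median distance from summit to the nearest protein-coding 5′ end was 1218 bp on X and 679 bp on the autosomes, where single chromosomes ran from 456 to 1000.5 bp. Within 1000 bp of a 5′ end were 167 X peaks (46.5%, 41.3 to 51.8) and 58.0% of autosomal peaks (55.5 to 60.5). Of those 167, 144 were upstream (86.2%, 80.1 to 91.1), and on the autosomes 79.7% were (76.9 to 82.3). The fullest 100 bp lay from 200 to 100 bp upstream on both, with 36 X peaks and 187 autosomal peaks. The 5′ ends of trans-spliced worm genes can be annotated downstream of where transcription starts.

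**Figure D4:**
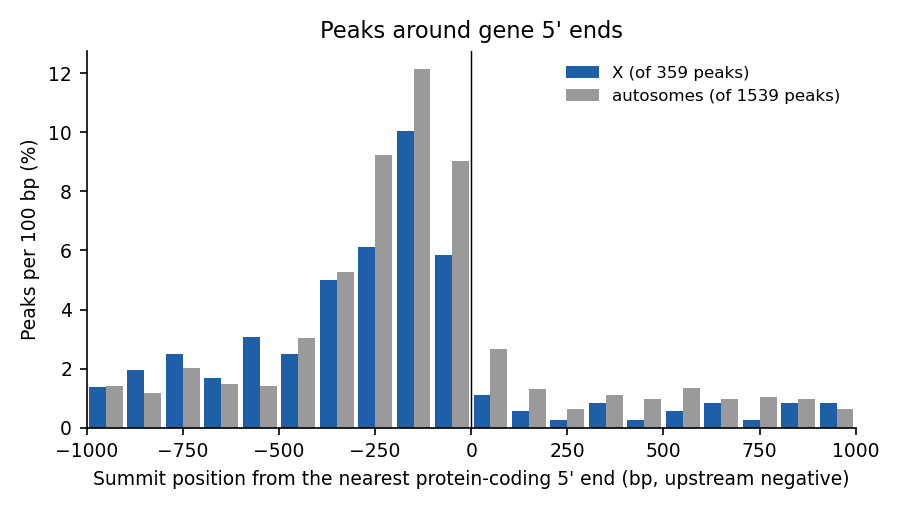
Percent of X peaks (blue, of 359) and autosomal peaks (grey, of 1539) per 100 bp (vertical axis) by summit position from the nearest protein-coding 5′ end (horizontal axis, bp, upstream negative), within 1000 bp. Both distributions peak from 200 to 100 bp upstream, and the X bars are lower than the grey ones from 300 bp upstream to 300 bp downstream.

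In promoter windows were 150 X peaks (41.8%, 36.6 to 47.1) and 786 autosomal peaks (51.1%, 48.5 to 53.6). The windows cover 17.6% of X and 22.3% of the autosomes, so the share was 2.37 times the share of bases on X and 2.29 times on the autosomes. The intervals of chromosomes II (45.7 to 57.2%), III (45.9 to 56.7%) and IV (38.4 to 49.8%) overlap that of X, and those of the other 2 autosomes do not. Windows of 2 or more genes at once held 16 X peaks (4.46%, 2.57 to 7.14) and 271 autosomal peaks (17.6%, 15.7 to 19.6). The share of bases in such overlaps was not computed, so these shares have no background beside them, and X has fewer protein-coding genes per Mb.

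The gap between X and autosomes in promoter share was widest among the strongest peaks. Of the 20 strongest X peaks 5 were in promoter windows, at nspc-17, puf-9, serp-1.1, zfp-3 and ins-39, and of the 20 strongest autosomal peaks 16 were. Of the 50 strongest the counts were 18 on X (36.0%, 22.9 to 50.8) and 38 on the autosomes (76.0%, 61.8 to 86.9). In replicate 1 alone they were 18 and 38 of 50, and in replicate 2 alone 18 and 36. Beyond the 50 strongest, 132 of 309 X peaks (42.7%, 37.1 to 48.4) and 748 of 1489 autosomal peaks (50.2%, 47.7 to 52.8) were in promoter windows.

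The kind of gap between genes also differed. Of the 263 X peaks outside protein-coding genes 102 were between divergent genes (38.8%, 32.9 to 45.0), 132 between genes in tandem and 29 between convergent genes (7.51 to 15.5%). On the autosomes 48.4% were between divergent genes (45.3 to 51.5) and 4.05% between convergent genes (2.92 to 5.46). Divergent gaps make up 36.9% of such bases on X and 33.8% on the autosomes, so the divergent share of X peaks was near its share of bases. Convergent gaps make up 9.30% of such bases on X and 11.7% on the autosomes. Among the 20 strongest X peaks 7 lay between convergent genes, including those at W02H3.3, mdl-1, F22H10.2 and gtr-1, and 3 between divergent genes. Among the 20 strongest autosomal peaks the counts were 1 and 11. Taken over peaks, the length of the surrounding gap had a median of 4758 bp on X and 1712 bp on the autosomes. Taken over all gaps, the medians were 1792.5 bp on X and 818 bp on the autosomes. A gap with several peaks is counted for each of them, and a longer gap holds more positions for a summit. The medians over peaks and over gaps therefore do not show whether peaks favour long gaps.

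By annotation, 231 X summits were intergenic (64.3%, 59.1 to 69.3), 71 in introns, 39 in exons of non-coding genes or pseudogenes, 12 in UTRs and 6 in coding exons (1.67%). On the autosomes 60.2% were intergenic (57.7 to 62.6) and 77 were in coding exons (3.97 to 6.21%). Intergenic sequence makes up 40.97% of X and 31.82% of the autosomes. Relative to bases the intergenic share was thus lower on X (ratio 1.57) than on the autosomes (1.89). Coding exons make up 19.97% of X and 25.63% of the autosomes, with ratios of 0.0837 and 0.195. Of the 71 intron peaks on X 37 were in the first intron of an annotated transcript (52.1%, 39.9 to 64.1), and on the autosomes 57.6% were (52.0 to 63.0). The strongest in a first intron were at F09A5.3 (200 in the pooled list), aak-2, a catalytic subunit of AMP-activated kinase (179), and rme-4 (143). Intron peaks at mom-1 and Y41G9A.17, the strongest of all in introns, were in later introns.

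The median height on X was slightly above that on the autosomes in the pooled list. Among the peaks matched in each replicate it was slightly below. The median pooled signal was 73.5 on X and 72.2 on the autosomes, a log2 difference of 0.024. Over the 341 X and 1487 autosomal peaks matched in replicate 1 the medians were 37.7 and 38.3. Over the 346 and 1490 matched in replicate 2 they were 37.6 and 37.9. In the 1898 strongest regions of each replicate alone the log2 difference was -0.026 in replicate 1 and 0.042 in replicate 2. The top of the range differed outside promoters. There the 90th percentile was 179 on X and 138 on the autosomes, log2 differences of 0.37 in the pooled list, 0.36 in replicate 1 and 0.28 in replicate 2. Inside promoter windows the 90th percentile was 154 on X and 171 on the autosomes, differences of -0.15, -0.12 and -0.27. The tallest autosomal peak, at 904, was above every X peak.

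Of the 359 X peaks 328 had a region with a summit within 100 bp in both replicate lists (91.4%, 88.0 to 94.1), and 93.5% of autosomal peaks did (92.2 to 94.7). All 359 had one in at least 1 replicate. These lists are unthresholded, with 27643 regions in replicate 1 and 27140 in replicate 2, so a weak region counts as a match. Only 218 X peaks (60.7%, 55.5 to 65.8) had a match among the 1898 strongest regions of each replicate. On the autosomes 61.8% did (59.3 to 64.2). Matched signals in the 2 replicates had a Spearman rho of 0.64 on X and 0.56 on the autosomes, over 328 and 1439 peaks that share their libraries. Of the matched X peaks 25 (7.62%) differed by more than 2-fold, 15 higher in replicate 1 and 10 in replicate 2, and of the matched autosomal peaks 150 did (10.4%). The most uneven was at gpd-2, with 47.6 in replicate 1 and 8.14 in replicate 2. Those most uneven the other way were at W05H9.4 (14.9 and 48.3) and T14G11.1 (15.4 and 45.8).

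The strongest X peaks without a match in 1 replicate were at tatn-1, which encodes a tyrosine aminotransferase, spat-3, a RING finger gene, and kin-20, the casein kinase homologue of fly Doubletime. The tatn-1 peak (pooled signal 99.6) had 68.7 in replicate 2 and no match in replicate 1. The spat-3 peak (87.3) had 50.2 in replicate 2 only. The kin-20 peak (84.8) had 57.8 in replicate 1 only.

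**Figure D5:**
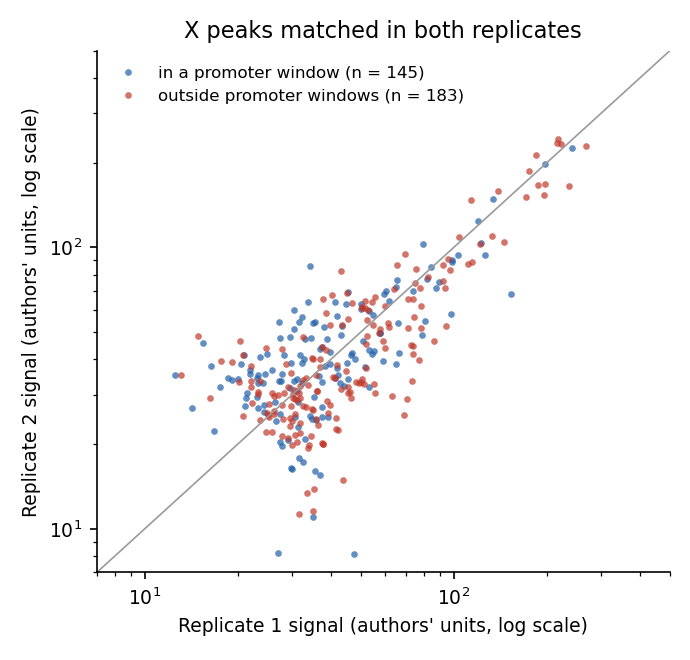
Signal of the 328 X peaks matched in both replicates, replicate 1 (horizontal axis) against replicate 2 (vertical axis), both in the authors' units on log scales, for peaks in (blue, n = 145) and outside (red, n = 183) promoter windows; the line marks equal values. Strong peaks lie near the line and weak ones scatter around it.

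Genes for tRNAs, the adaptors of translation transcribed by RNA polymerase III, were a recurrent neighbour of X peaks. Within 200 bp of a tRNA gene were 24 X peaks (6.69%, 4.33 to 9.78) and 20 autosomal peaks (1.30%, 0.796 to 2.00). By genes, 29 of the 276 tRNA genes on X (10.5%, 7.15 to 14.7) and 21 of the 336 on the autosomes (6.25%, 3.91 to 9.40) had a peak that near. The 2 intervals by genes overlap. The summits lay a median of 32 bp upstream of the tRNA 5′ end, with 22 of the 29 upstream and 4 inside the gene. The products were varied, with 5 genes for tRNA-Pro and 3 each for tRNA-Ala, tRNA-Glu and tRNA-Leu. These peaks had pooled signals from 49.8 to 140, with a median of 80.7, and the strongest had rank 50 on X.

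The strongest tRNA peaks were at R04A9.t1 (140, with 78.2 in replicate 1 and 61.9 in replicate 2), C28G1.t1 (139, with 65 and 72.1), and between the divergent M02F4.t1 and M02F4.t2 (124, with 71.4 and 51.7). At R04A9.t1, a tRNA-Gln gene, the summit was 185 bp upstream. It was 109 bp upstream of C28G1.t1, a tRNA-Glu gene. The weaker peak beside the tall xol-1 peak was within 200 bp of C18A11.t2, a tRNA-Arg gene, and 5 peaks had 2 tRNA genes within that distance.

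Few small RNA genes of other kinds on X were near a peak, and most shares of genes were close to the autosomal ones or had wide intervals. Of the 33 snoRNA genes on X 1 had a peak within 200 bp, D2021.6 (signal 124), a share of 3.03% (0.0767 to 15.8). Of the 313 on the autosomes 55 did (17.6%, 13.5 to 22.2), and the intervals by genes overlap. By peaks, 1 of 359 on X (0.279%, 0.00705 to 1.54) and 55 of 1539 on the autosomes (3.57%, 2.70 to 4.63) were that near a snoRNA gene. These 2 intervals do not overlap. None of the 3 snRNA genes on X had a peak that near, and 13 of 126 on the autosomes did. Of 74 miRNA genes on X 2 had one (2.70%), and 6 of 187 on the autosomes did (3.21%). The peak at let-7, the miRNA that times the change to adult fates, had a signal of 63.0 (32.6 in replicate 1 and 27.3 in replicate 2) and lay 130 bp beyond the 3′ end of the annotated gene. The other, 114 bp upstream of mir-230, had 51.7. Of 38 lincRNA genes on X 4 had one (10.5%, 2.94 to 24.8), and 10 of 156 on the autosomes did (6.41%, 3.12 to 11.5). The strongest on X were at linc-78 (185), linc-33 (91.3) and linc-43 (76.6). Genes annotated only as ncRNA were within 200 bp of 86 X peaks (24.0%, 19.6 to 28.7) and 225 autosomal peaks (14.6%, 12.9 to 16.5). The strongest of these were at W06B11.7 and W06B11.9 (395), R03E9.10 (354) and C30E1.9 (251). By genes the shares were 4.33% of 2520 on X and 5.24% of 5244 on the autosomes.

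Of the 2731 protein-coding genes on X 161 had a peak in their promoter window (5.90%), and 6.10% of the 17242 on the autosomes did. The lists below, drawn up with earlier results of these data known, are read against that share and were not tested. Of the 6 genes of sex determination and dosage compensation on X only sdc-2, which brings the dosage compensation complex to X, had a promoter peak. It had 94.2 in the pooled list, with 35.7 in replicate 1 and 54.4 in replicate 2, 443 bp upstream. The tall peak nearest xol-1 was outside its window. The genes fox-1, sex-1, ceh-39 and sdc-1 had no member peak in or nearest to them.

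Of 7 larval timing genes on X, lin-14, a nuclear regulator of early larval fates, had a weak promoter peak (49.9, with 17.9 in replicate 1 and no match in replicate 2). Introns of lin-14 held 3 stronger peaks, of 69.2, 59.9 and 53.9, the last with no match in replicate 2. Other peaks outside promoters lay at kin-20 (3 peaks, of 144, 84.8 and 84.5), at daf-12, a nuclear receptor (101), at let-7 and at alg-1, an Argonaute gene of the miRNA pathway (53.4). The genes hbl-1 and mir-84 had no peak in or nearest to them. A peak of 148 (94.5 and 52.4) lay between the divergent genes F13D11.3 and hbl-1, with the F13D11.3 5′ end nearest.

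Of 24 neuronal genes on X 2 had a promoter peak, unc-115, which encodes an actin-binding protein of axon guidance (97.4, with 43.5 and 52.5), and syd-2, the liprin-alpha of synapses (57.1, with a match only in replicate 2). Of 9 genes of cuticle and body size only dpy-23, an AP-2 clathrin adaptor subunit, had one (186, with 98.8 and 88.9), and it is not the weaker peak near dpy-23 that holds the core. A peak of 224 (122 and 103) lay 2951 bp upstream of sma-9, the Schnurri homologue of the BMP pathway. None of 5 vitellogenin genes on X had a peak. Of 2 genes for cytosolic ribosomal proteins, rpl-11.2 had a promoter peak of 185 (79.3 and 103). Of 23 nuclear hormone receptor genes 6 had one (26.1%), the strongest at nhr-1 (127), nhr-35 (79.5), nhr-48 (78.1) and nhr-3 (61.0).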

How the data were processed

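A control entered the authors' calling of regions in each replicate and in the pool of both, per the deposited records, which name these relaxed lists as input for IDR and as the source of the thresholded peaks. The sources used here name no aligner, caller or IDR cutoff. The signal that the authors deposited is a region's height on a scale that was not stated, so ranks were taken within a list. The deposited −log10 q values entered no result. Depth is unknown, since the files hold no read counts. Intervals are exact Clopper-Pearson 95% intervals and cover counting error only.

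Genes came from Ensembl release 115 (WBcel235, the assembly also called ce11), and sequence, tRNA products and names missing there from RefSeq for that assembly. Coordinates count from base 1. Classes were assigned in the order coding exon, UTR, non-coding or pseudogene exon (without piRNA genes), intron, intergenic. Summits within 100 bp matched between lists. Peaks are not replicates of a condition, so X and autosomal values are set side by side with no test, and each replicate was also ranked alone. Sites named are the 20 strongest X peaks, the 3 weakest, the 3 strongest unmatched, the 3 closest pairs and 3 widest gaps, the 3 strongest at each kind of non-coding gene, those in introns with the highest signal, and up to 4 per gene list. Peaks of uneven height, runs of peaks, weak peaks with the core and the intron peaks at lin-14 were named after their values were seen. In 2 gene lists 1 name was not matched. The members, lists and motifs were chosen with earlier results of these data known. The wider word GCGNAGGG, and the alternatives for the motif share and the median distance, were added after values had been seen. The ce10 peaks served as an alternative only. All 14 checks on simulated data recovered the planted answers. Python 3.11.15, numpy 2.4.6, pandas 2.3.3, scipy 1.17.1 and matplotlib 3.10.9 were used.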

Additional observations from a re-analysis of the deposited data

How the results depend on the processing

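The X share of peaks, the shares near tRNA and other non-coding RNA genes, the promoter share and the intergenic share kept within their 95% intervals when either replicate was left out (18.9% became 17.7 to 18.8%, and the promoter share of 41.8% became 38.5 to 43.2%). The median spacing became 21968 to 29005 bp. The X to autosome log2 difference in median signal, 0.024, ranged from -0.026 without replicate 2 to 0.042 without replicate 1, so it had no stable sign, and was 0.091 among the 949 strongest peaks. The median signed position of X peaks, -195 bp, was -181 to -178.5 bp with a replicate left out, -211 bp in the 949 strongest, -144 bp in the 3796 strongest pooled regions and -258 bp with the 5′ ends of every transcript. Among alternatives chosen after seeing the data, the median distance of 1218 bp on X was 896 bp with every transcript (475 bp on the autosomes) and 1443.5 bp without replicate 2 (794 bp), and the core was near 7.10% of X peaks in the 949 strongest (0.261% on the autosomes). With those 3796 regions, the intergenic share was 58.6%, the spacing 10721 bp, and the share matched in both replicates 83.9%; with the 949 strongest, spacing was 52712 bp and 96.7% were matched; spacing changes with the number of peaks by construction. Matching within 50 bp gave 73.3% and within 200 bp 99.2%. The X promoter share was 23.1% with windows of 300 bp upstream and 100 bp downstream, 51.3% with 2000 bp and 500 bp, and 47.4% with every transcript, and the autosomal share was above it each time (33.2, 65 and 58.5%). Summits inside the gene gave 1.11% for tRNA genes and 10.3% for other non-coding RNA genes on X, against 0.325% and 7.02% on the autosomes. The remaining alternatives moved no value beyond its interval or the spread between replicates, apart from the wider word. No paired analysis was possible because the study has 1 group. With 2 replicates and no read counts, shares among the 20 strongest peaks have wide intervals, and no control library was analysed.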
